A study of Homo sapiens with 8 samples.

Results

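A set of 10 genes of the bone morphogenetic protein (BMP) and SMAD pathway was followed in HCT-116, a cell line from a human colorectal carcinoma. They are the inhibitor of differentiation genes ID1, ID2, ID3 and ID4, the inhibitory SMAD genes SMAD6 and SMAD7, the receptor-activated SMAD9, the decoy receptor BAMBI and the ligands BMP2 and BMP4. All array probes carrying one of these 10 gene names were taken, which gave 12 probes among 50599 that are not controls. ID2 and SMAD9 have 2 probes each and the other genes 1. Every one of the 12 passed the filter on dim signal, and 9 of them, from 8 genes, were well above background on all 8 arrays. The exceptions were ID4, BMP2 and the second probe of SMAD9.

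RNA was taken from 4 groups with 2 arrays each, which the labels call biological replicates. WT cells are the untreated parental line. WT+NU6102 cells are the same line given 20 µM NU6102, an inhibitor of CDK1 and CDK2, for 24 h. CDK2-/- cells are an untreated line with the CDK2 gene deleted, bought, as was the parental line, and R50 cells were grown from the start in 50 µM NU6102 and kept in it. The CDK2-/- and R50 groups are thus each 1 cell line, and the sources used here do not give whether the R50 cells hybridized were early or late in that culture. The authors' array methods do not state whether the drug was present when RNA was taken from R50 cells. R50 differs from WT+NU6102 in dose, in the length of exposure and in its selection. All cells grew in the same serum-containing medium, and no group was given BMP or a BMP antagonist.

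BMP ligands bind paired serine/threonine kinase receptors, which phosphorylate SMAD1, SMAD5 and SMAD9, and these enter the nucleus with SMAD4 to switch on target genes. ID genes are classical targets. Their proteins lack a DNA-binding region and hold basic helix-loop-helix factors away from DNA, which favours proliferation over differentiation. SMAD6, SMAD7 and BAMBI are also induced by the pathway and dampen it, SMAD6 mainly on the BMP side, SMAD7 on both the BMP and the TGF-beta side, and BAMBI as a receptor without a kinase. In the intestine, BMP signalling is known to rise along the crypt axis towards differentiated cells.

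Promoter windows are shown for 4 of the members, because SMAD proteins recognise a short core motif that can be looked for in them. RefSeq windows on GRCh38.p14 were found for 9 of the 10 genes, the exception being BMP2. Each line gives the 250 bases before the annotated start, 5′ to 3′ on the gene's strand, with the core GTCT or its reverse complement AGAC in capitals.
ID1, chr20:31605039-31605288, plus strand: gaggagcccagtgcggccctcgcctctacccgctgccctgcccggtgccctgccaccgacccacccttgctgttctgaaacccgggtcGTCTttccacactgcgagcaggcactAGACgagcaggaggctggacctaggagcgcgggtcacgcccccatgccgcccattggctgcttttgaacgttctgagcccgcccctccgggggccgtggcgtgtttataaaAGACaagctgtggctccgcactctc
ID2, chr2:8681806-8682055, plus strand: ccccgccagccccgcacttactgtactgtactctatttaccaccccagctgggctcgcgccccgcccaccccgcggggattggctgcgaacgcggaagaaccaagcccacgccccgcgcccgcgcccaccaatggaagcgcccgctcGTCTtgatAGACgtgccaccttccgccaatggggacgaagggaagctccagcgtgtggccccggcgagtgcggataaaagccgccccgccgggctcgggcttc
ID3, chr1:23559502-23559751, minus strand: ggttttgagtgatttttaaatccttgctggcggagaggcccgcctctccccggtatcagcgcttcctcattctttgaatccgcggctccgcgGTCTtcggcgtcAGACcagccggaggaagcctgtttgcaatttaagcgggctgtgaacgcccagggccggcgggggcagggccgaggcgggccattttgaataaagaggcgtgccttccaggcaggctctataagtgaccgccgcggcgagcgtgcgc
SMAD6, chr15:66701986-66702235, plus strand: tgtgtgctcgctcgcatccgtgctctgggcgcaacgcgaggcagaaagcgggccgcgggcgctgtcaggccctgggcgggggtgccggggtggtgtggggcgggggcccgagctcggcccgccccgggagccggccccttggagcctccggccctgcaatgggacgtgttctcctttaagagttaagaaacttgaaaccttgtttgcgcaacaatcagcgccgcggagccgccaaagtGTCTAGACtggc
The ID1 window holds 3 matches and those of ID2, ID3 and SMAD6 hold 2 each. In SMAD6 they join into the palindrome GTCTAGAC close to the start of the gene. Among windows not shown, those of SMAD7 hold 5, 4 and 1 matches and that of BAMBI 4. The BMP4 windows hold 2, 2 and 0, and those of ID4 and SMAD9 hold 1 each. A match of the core on either strand is common, being present in 77.5% of 35116 such windows, and 20.9% hold 3 or more. The palindrome is in 64 windows, or 0.182%. Such matches describe letters, and no binding was measured here.

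Signals are given as log2 of the background-subtracted intensity minus the 75th percentile of the array, so that 0 is the level of that percentile and a step of 1 is a doubling. Levels are compared only within a probe. From 32376 to 36206 spots were well above background on an array, and precision is limited by having 2 arrays a group. WT and WT+NU6102 arrays shared 1 slide and CDK2-/- and R50 arrays another. In comparisons across the slides, slide and group cannot be told apart. CDK2 itself, for which the position of the probe relative to the deletion is not given in the sources used here, read −1.58 and −1.53 on the CDK2-/- arrays and −0.78 and −0.77 on the WT arrays. All 6 epithelial markers were well above background on all 8 arrays. So were 2 of 5 haematopoietic, 1 of 6 fibroblast and 2 of 4 endothelial markers, while HBB, KDR, COL1A2, COL3A1, LUM and PDGFRB were on none. Summed over tested markers on the linear scale, where 1 is the 75th percentile, epithelial signal was 476 to 489 in WT, 564 to 586 in WT+NU6102, 599 to 623 in CDK2-/- and 743 to 748 in R50. The summed haematopoietic signal ran from 0.357 to 0.520 and the endothelial from 0.299 to 0.375 over all groups.

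Each of the 10 genes was described on every array by its brighter probe. The ID1 probe (hg19 chromosome 20, 30194158 to 30194217, in the transcript NM_002165) read 6.18 and 6.22 on the WT arrays, 5.30 and 5.37 with NU6102, 6.68 and 6.71 in CDK2-/- cells and 6.72 and 6.69 in R50 cells. Treated WT cells were lowest, WT cells came next, and the CDK2-/- and R50 arrays were highest and overlapped. The ID2 probe (chromosome 2, 8822642 to 8823030) read 2.84 and 2.89 in WT, 2.70 and 2.66 with NU6102, 4.18 and 4.2 in CDK2-/- and 3.0 and 2.96 in R50. CDK2-/- cells stood apart for ID2, while the other groups lay within a narrow band without overlapping. The ID3 probe (chromosome 1, 23885666 to 23885725) read 2.67 and 2.73 in WT, 1.77 and 1.88 with NU6102, 3.88 and 3.92 in CDK2-/- and 3.63 and 3.63 in R50. ID3 thus followed the order of ID1, with CDK2-/- a little above R50. The ID4 probe (chromosome 6, 19840841 to 19840900) was dim and read −3.60 and −3.39 in WT, −4.90 and −4.68 with NU6102, −2.53 and −2.32 in CDK2-/- and −4.77 and −4.15 in R50. For ID4 the WT+NU6102 and R50 arrays overlapped, and only 1 of 2 in each of these groups was well above background.

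The inhibitory SMAD genes had unlike orders. The SMAD6 probe (chromosome 15, 67074263 to 67074322) read 0.38 and 0.54 in WT, −1.39 and −1.37 with NU6102, 0.62 and 0.47 in CDK2-/- and 1.36 and 1.23 in R50. Treated cells were lowest and R50 cells highest, with WT and CDK2-/- arrays overlapping between them. The SMAD7 probe (chromosome 18, 46446782 to 46446841) read −2.81 and −2.71 in WT, −1.36 and −1.38 with NU6102, −2.50 and −2.33 in CDK2-/- and −3.13 and −3.17 in R50. Its order was nearly the reverse of that of SMAD6, with treated cells highest and R50 lowest. The BAMBI probe (chromosome 10, 28971551 to 28971610) read 1.68 and 1.69 in WT, 2.73 and 2.79 with NU6102, 3.68 and 3.71 in CDK2-/- and 1.52 and 1.46 in R50. BAMBI was highest in CDK2-/- cells, then in treated cells, with R50 just under WT. The brighter SMAD9 probe (chromosome 13, 37422813 to 37422872) stayed between −2.26 and −1.69 on all arrays. It changed least among the probes that describe the 10 genes. The second, dim SMAD9 probe varied more, with group means from −6.8 with NU6102 to −4.01 in CDK2-/-. It was not well above background on any WT+NU6102 or R50 array.

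Both ligand genes were highest in CDK2-/- cells. The BMP4 probe (chromosome 14, 54417318 to 54417377) read −0.30 and −0.23 in WT, 0.39 and 0.47 with NU6102, 1.25 and 1.27 in CDK2-/- and 0.43 and 0.39 in R50. WT cells were lowest for BMP4, and the WT+NU6102 and R50 arrays lay together in the middle. The BMP2 probe (chromosome 20, 6760810 to 6760869) read −3.39 and −3.87 in CDK2-/- cells and was not well above background on any array of the other groups, where it lay between −7.17 and −6.59. Over the 4 groups, 8 of the 10 genes passed the moderated F-test of limma at an adjusted p under 0.001, a threshold passed by 28.7% of the 14147 genes with a tested probe to a RefSeq mRNA. ID4 (adjusted p = 0.00105) and the first SMAD9 probe (adjusted p = 0.106) did not pass. The second SMAD9 probe, which is dim, passed this F-test (adjusted p = 0.000154), so the SMAD9 probes disagree. Leaving out either WT+NU6102 array left 5 genes past the threshold.

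**Figure D1:**
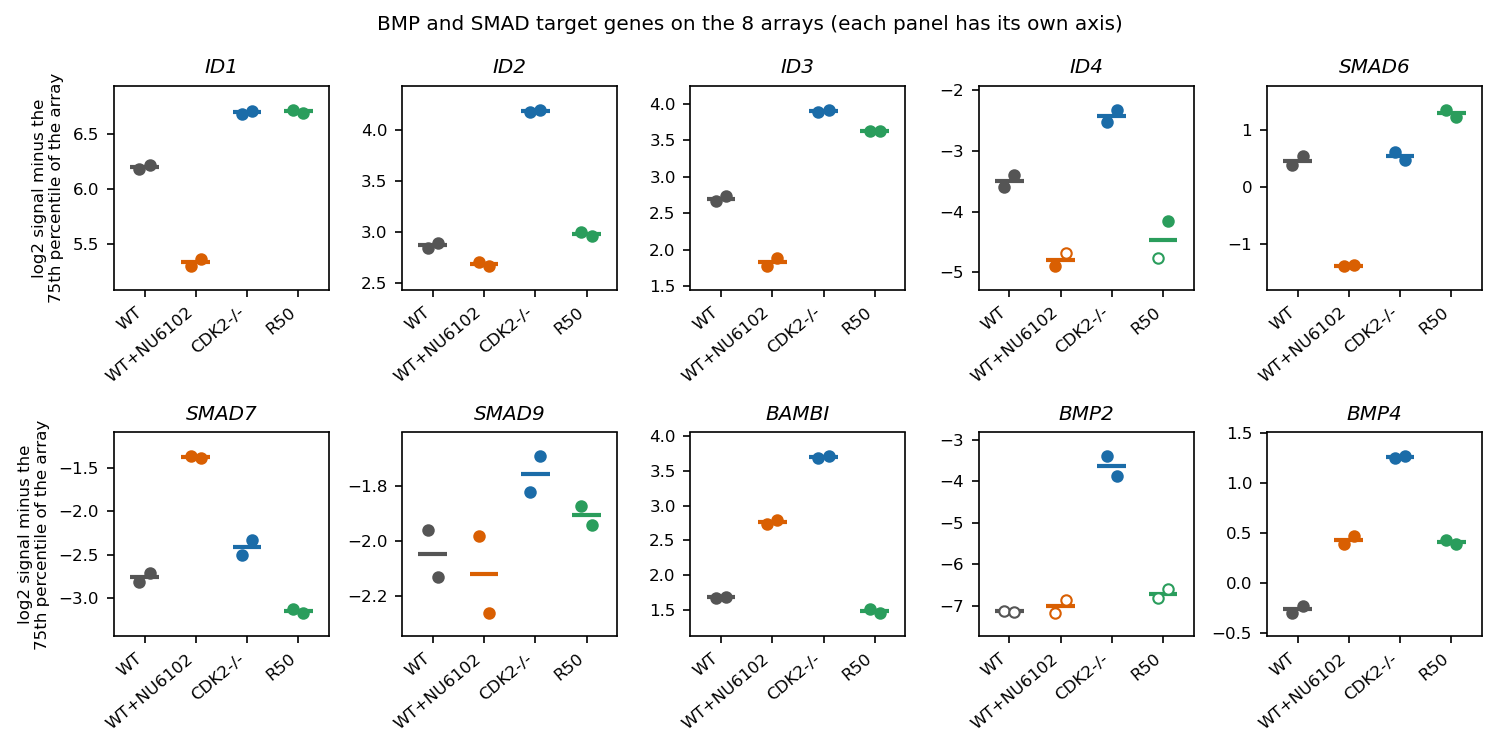
Log2 signal minus the 75th percentile of the array (vertical axis, with its own range in each panel) for the 10 genes in the 4 groups. Points are single arrays, lines are group means over 2 arrays, and open points were not well above background. ID1, ID3 and SMAD6 were lowest with NU6102, while ID2, BAMBI, BMP2 and BMP4 were highest in CDK2-/- cells.

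The response to acute CDK inhibition was read from WT+NU6102 against WT, a comparison within 1 slide. ID1, ID3, ID4 and SMAD6 were lower after 24 h in NU6102, SMAD6 most, and ID2 differed little. SMAD7, BAMBI and the ligand gene BMP4 were higher. The ID genes, SMAD6, SMAD7 and BAMBI are all known to be induced by BMP signalling, so its known targets went both ways. A change was called 2-fold where the limma adjusted p was under 0.05 and the log2 fold change at least 1 in size. By this rule 2 of the 10 genes rose, against 1.15% of all genes tested, and 2 fell, against 5.6%. Without the fold minimum 3 rose and 5 fell, so 8 were called, where 54.7% of all genes were. The members were chosen with earlier results of these data known. Shares of all genes, here and below, are therefore given for scale and do not test the set.

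Among the ID genes, ID1 fell by 0.87 on the log2 scale (SE 0.05, limma adjusted p = 0.000198) and ID3 also by 0.87 (SE 0.06, adjusted p = 0.000295), each a 1.83-fold difference. ID4 fell by 1.29 (SE 0.22, adjusted p = 0.00554) but only by 0.52 after normexp background correction, under the fold minimum. ID2, another ID gene, differed little, by −0.18 (adjusted p = 0.0252), and its call was lost when any 1 of the 4 WT or WT+NU6102 arrays was left out. Its second probe read −0.29 (adjusted p = 0.0319). SMAD6 fell by 1.84 (SE 0.09, adjusted p = 0.000154), a 3.58-fold difference with a 95% confidence interval of the log2 value from −2.06 to −1.62. SMAD7 rose by 1.39 (SE 0.07, adjusted p = 0.000171), higher than 99.6% of all genes tested, and BAMBI by 1.08 (SE 0.05, adjusted p = 0.000143), higher than 98.9%. With normexp correction SMAD7 read 0.99, and with quantile normalization BAMBI read 0.92 and ID3 −1.01, which changes their side of the fold minimum, and ID2 read −0.35 with the latter. BMP4 rose by 0.69 (SE 0.05, adjusted p = 0.000408). BMP2 was not well above background in either group. The first SMAD9 probe differed by −0.08 (adjusted p = 0.637, interval −0.36 to 0.21). Its second probe, in the transcript NM_001127217 (chromosome 13, 37419488 to 37419547), read −4.59 on both WT arrays and was not well above background with NU6102, at −6.81 and −6.79, so it was at least 1.31-fold lower (adjusted p = 0.000236). The SMAD9 probes therefore disagree. By an unpaired t-test between the 2 groups alone, with Benjamini-Hochberg adjustment added here, ID2 (0.0863) and ID4 (0.059) did not pass. The authors' methods name such a t-test for experimental groups in general. For the arrays they name an ANOVA with a post hoc test. Below, the adjusted t-test is called the methods' t-test, and it is not the authors' procedure for these arrays.

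CDK2 deletion was read from CDK2-/- against WT, across the slides. Most members were higher in CDK2-/- cells. The ligand genes BMP2 and BMP4, the ID genes ID2, ID3 and ID4 and the decoy receptor BAMBI were at least 2-fold higher, and no member was lower. These 6 of 10 compare with 2.83% of all genes tested, and the 0 that fell with 2.35%. Without the fold minimum 8 rose, while 37.2% of all genes were called in either direction. The median log2 fold change was 1.14 over the 10 genes and 0.02 over all genes. Because the members were chosen with earlier results of these data known, these contrasts with all genes describe the set and do not test it.

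BAMBI rose 4.02-fold in CDK2-/- cells (log2 2.01, SE 0.05, limma adjusted p = 2.51e-05). BMP4 rose 2.87-fold (log2 1.52, SE 0.05, adjusted p = 6.06e-05). BMP2 was at least 2.52-fold higher (adjusted p = 0.000237), a bound because WT signal was not well above background, and its fitted log2 value fell from 3.51 to 1.01 after normexp correction. ID2 rose 2.51-fold (log2 1.33, SE 0.05, adjusted p = 6.83e-05) and its second probe 2.70-fold. ID3 rose 2.30-fold (log2 1.20, SE 0.06, adjusted p = 0.000161). ID1 rose less, by 0.49 (SE 0.05, adjusted p = 0.00162). ID4 rose by 1.07 (SE 0.22, adjusted p = 0.0166), a call that was lost when any 1 of the 4 WT or CDK2-/- arrays was left out, at an adjusted p of 0.0523 to 0.0857, and it read 0.68 after normexp correction. SMAD7 rose by 0.34 (adjusted p = 0.0188), lost without WT replicate 1 or CDK2-/- replicate 2. SMAD6 differed by 0.08 (adjusted p = 0.537, interval −0.14 to 0.31; −0.01 after normexp correction) and the first SMAD9 probe by 0.29 (adjusted p = 0.112, interval 0.01 to 0.58). The second SMAD9 probe rose by 0.58 (adjusted p = 0.0256). By the methods' t-test ID1 (0.0522), BMP2 (0.0583), ID4 (0.0912) and SMAD7 (0.183) did not pass after adjustment. Of the marker genes of other cell types, COL1A1 was 1.22 higher in CDK2-/- cells (adjusted p = 0.000376), with a linear signal of 0.313 to 0.324 against 0.131 to 0.143 in WT. The tested endothelial markers stayed under the fold minimum, and the part of other cells in the result was not tested.

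**Figure D2:**
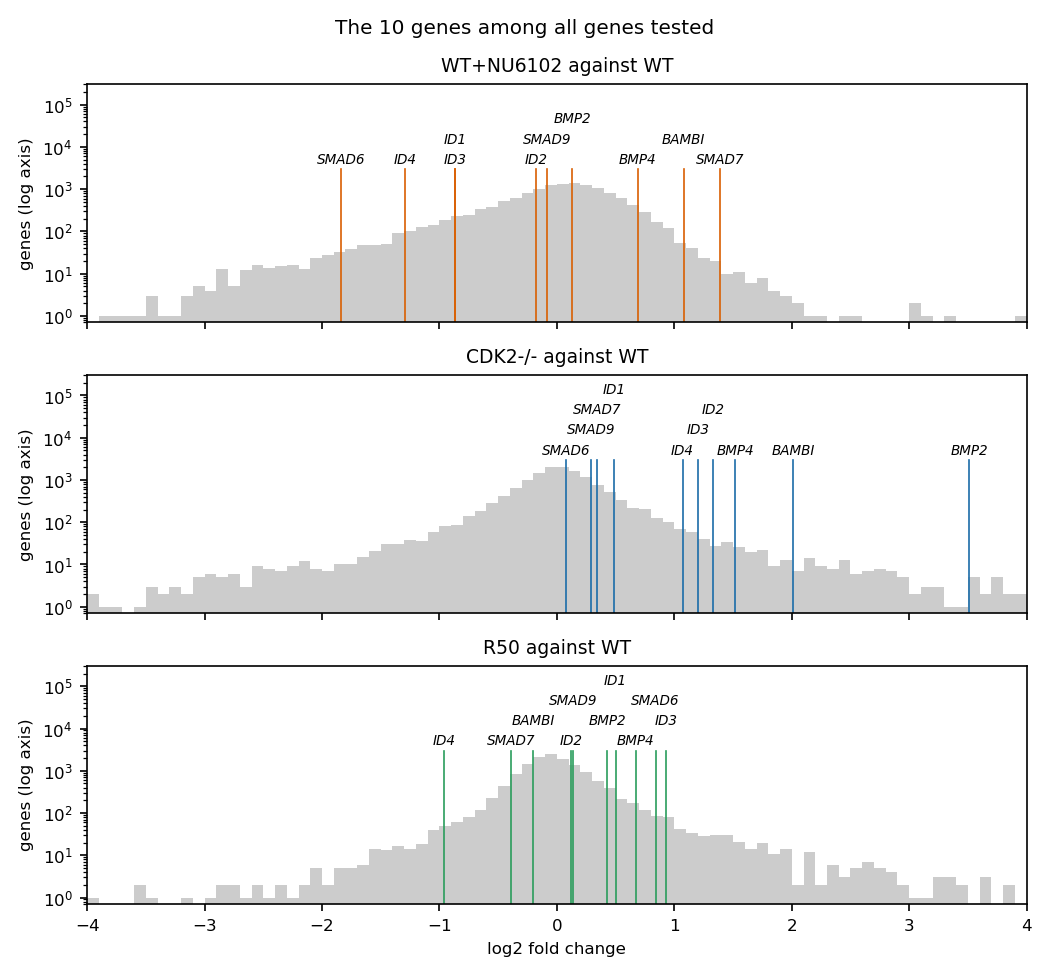
Distribution of log2 fold changes against WT (horizontal axis, in bins of 0.1) over 14147 genes, as the number of genes on a log axis, with the 10 genes as labelled lines. A few genes lie beyond the axis. SMAD6 lies far to the left and SMAD7 and BAMBI to the right with NU6102, all 10 lie above 0 in CDK2-/- cells (SMAD6 only at 0.08, and at −0.01 after normexp correction), and none passes 1 in size in R50 cells. The BMP2 line is a fitted value against a dim WT signal.

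Cells kept in NU6102 were read from R50 against WT, again across the slides. The differences did not run one way. ID1, ID3, SMAD6 and BMP4 were higher in R50 cells, while ID4, SMAD7 and BAMBI were lower. No gene of the 10 reached the 2-fold threshold, against 1.9% of all genes tested that rose and 0.855% that fell. Without the fold minimum 4 rose and 3 fell in limma, where 28.5% of all genes were called. ID3 rose 1.91-fold (log2 0.93, SE 0.06, limma adjusted p = 0.000699) and SMAD6 1.78-fold (log2 0.84, SE 0.09, adjusted p = 0.00375). BMP4 rose by 0.67 (SE 0.05, adjusted p = 0.00144) and ID1 by 0.50 (SE 0.05, adjusted p = 0.00287). SMAD7 fell by 0.39 (SE 0.07, adjusted p = 0.0175), and its call was lost when any 1 of the 4 WT or R50 arrays was left out and after normexp correction (−0.15, adjusted p = 0.137). BAMBI fell by 0.20 (adjusted p = 0.0425), a call lost whichever of the 8 arrays was left out. ID4 read −0.96 (SE 0.22, adjusted p = 0.0315), which was kept only without R50 replicate 2 and was then −1.27, the single 2-fold call of a member among these refits. After normexp correction ID4 read −0.32 (adjusted p = 0.0344). ID2 differed by 0.12 (adjusted p = 0.145, interval 0.00 to 0.23) and the first SMAD9 probe by 0.14 (adjusted p = 0.422, interval −0.14 to 0.43). The second SMAD9 probe went the other way, at −0.39 (adjusted p = 0.0953). It was well above background on both WT arrays and on neither R50 array. BMP2 was not well above background in either group. By the methods' t-test none of the 7 genes passed after adjustment (0.0705 for ID3 to 0.265 for ID4), where 9 probes of the whole array were called 2-fold.

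R50 and CDK2-/- cells, the drug-adapted and the deleted line, were compared within 1 slide. SMAD6 was higher in R50, and ID1 differed by 0.01. ID2, ID4, BAMBI and BMP2 were lower in R50 by more than 2-fold. These 4 of 10 compare with 2.57% of all genes tested, and the 0 that rose 2-fold with 3.05%. Without the fold minimum 1 rose and 7 fell, where 42.2% of all genes were called. BAMBI fell 4.60-fold (log2 −2.20, SE 0.05, limma adjusted p = 2.07e-05). ID2 fell 2.32-fold (log2 −1.21, SE 0.05, adjusted p = 8.24e-05), and its second probe 2.49-fold. BMP2 was at least 2.63-fold lower (adjusted p = 0.000301), though its fitted log2 value after normexp correction was −0.74. ID4 fell by 2.04 (SE 0.22, adjusted p = 0.00172), but normexp correction brought this just short of the fold minimum and put SMAD7 at −0.39. Below 2-fold, BMP4 fell by 0.85 (adjusted p = 0.000295), SMAD7 by 0.74 (adjusted p = 0.00129) and ID3 by 0.27 (adjusted p = 0.0178), the last lost when any 1 of the 4 arrays of these groups was left out. SMAD6 rose by 0.75 (SE 0.09, adjusted p = 0.00241). The difference of ID1 (adjusted p = 0.875) had an interval of −0.11 to 0.14. The first SMAD9 probe differed by −0.15 (adjusted p = 0.367), while the second was at least 1.93-fold lower in R50 (adjusted p = 0.00409). By the methods' t-test ID3 (0.0594), BMP2 (0.0624), SMAD7 (0.0774), SMAD6 (0.088) and ID4 (0.102) did not pass after adjustment. Among the markers of other cell types, COL1A1 fell by 0.55 in R50 (adjusted p = 0.00422), and the part of such cells was not tested.

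R50 and WT+NU6102 cells were both cultured with the drug, at different doses and for different times, and lay on different slides. SMAD6, ID3 and ID1 were higher in R50, and SMAD7 and BAMBI were lower. These 3 higher genes compare with 8.58% of all genes tested and the 2 lower ones with 3.4%. Without the fold minimum 4 rose and 2 fell, where 61.9% of all genes were called. SMAD6 rose 6.39-fold (log2 2.68, SE 0.09, limma adjusted p = 2.54e-05), the largest difference among members well above background in both groups of a comparison. ID3 rose 3.49-fold (log2 1.80, adjusted p = 2.3e-05) and ID1 2.59-fold (log2 1.37, adjusted p = 3.05e-05). SMAD7 was 3.44-fold lower (adjusted p = 4.15e-05), with 0.382% of all genes tested below it, and BAMBI 2.41-fold lower (adjusted p = 3.76e-05). ID2 rose by 0.30 (adjusted p = 0.00336). BMP4 differed by −0.02 (adjusted p = 0.789, interval −0.15 to 0.11). ID4 (0.33, adjusted p = 0.264) and SMAD9 (0.22, adjusted p = 0.170) did not pass the test. For BMP2 and the second SMAD9 probe both groups were not well above background. COL1A1, the one fibroblast marker tested, was 1.41 higher in R50 (adjusted p = 8.55e-05), and the part of other cells was not tested. Normexp correction left SMAD7 at −1.14 and ID2 at 0.19, and quantile normalization put ID2 at 0.51.

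**Figure D3:**
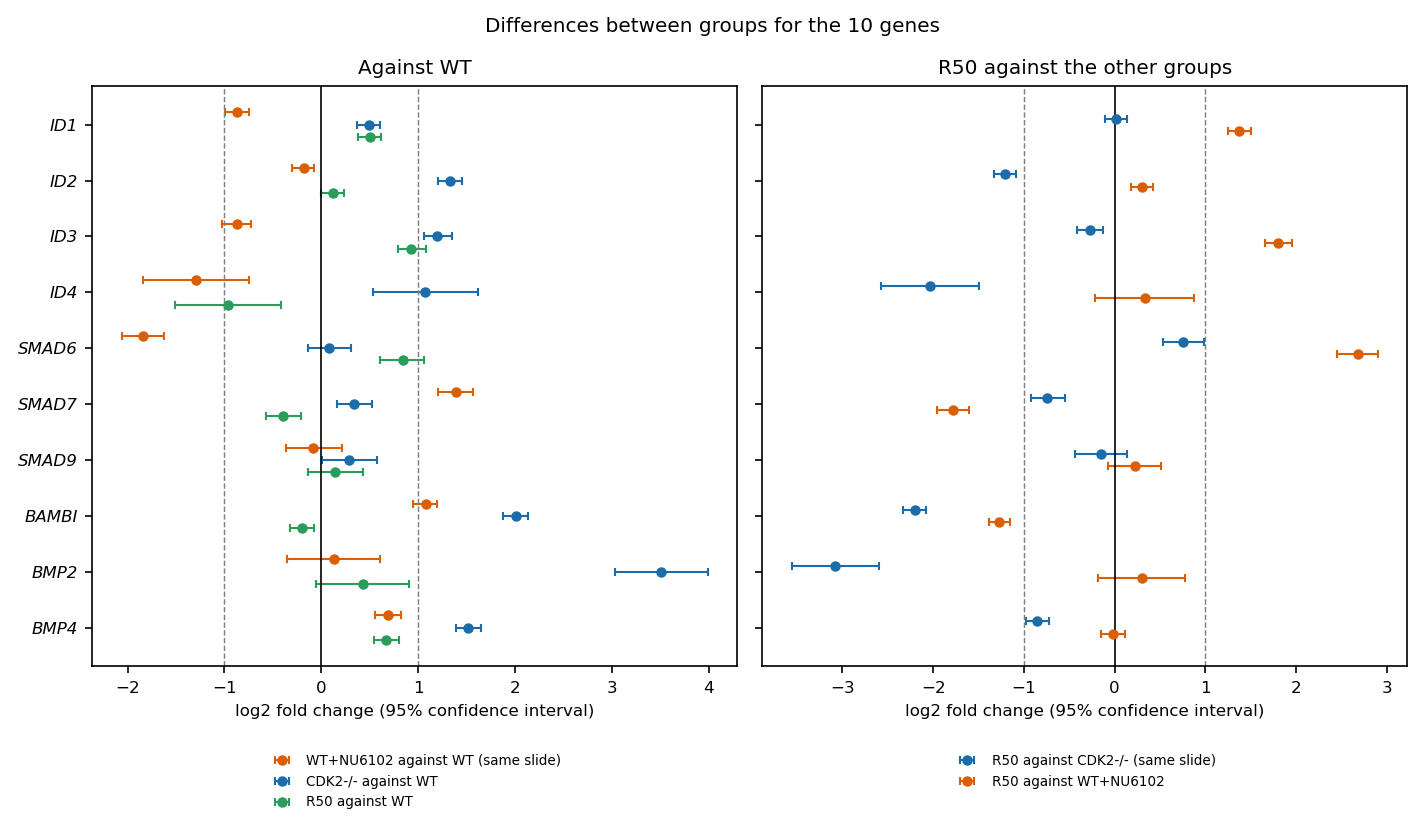
Log2 fold changes of the 10 genes (horizontal axis) with 95% confidence intervals from the limma fit over 8 arrays, against WT on the left and for R50 against the other groups on the right. Dashed lines mark 1 in size. On the left, ID1, ID3 and SMAD6 lie below 0 only for WT+NU6102, and BMP2 intervals are those of fitted values near background.

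Other genes of the BMP and TGF-beta pathways were counted from 9 lists with 106 genes, of which 69 had a tested probe. After NU6102, 4 of these 69 rose and 8 fell at least 2-fold, beside 1.15% and 5.6% of all genes tested. In CDK2-/- cells 1 rose and 2 fell, beside 2.83% and 2.35%, and in R50 cells 2 rose and 1 fell, beside 1.9% and 0.855%. The medians of the 69 were −0.08, 0.03 and 0.07, close to those of all genes at 0.05, 0.02 and −0.04.

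Upstream, 6 of 12 other BMP ligand genes were tested. BMP8A was at least 1.66-fold lower with NU6102 (limma adjusted p = 0.000114) and at least 3.20-fold higher in R50 than in treated WT cells. BMP6 fell by 1.04 with NU6102 (adjusted p = 0.0209; 0.0861 and 0.0967 without WT replicate 1 and WT+NU6102 replicate 2) and fell by 1.57 in R50 relative to CDK2-/- cells (adjusted p = 0.00691). Of 8 tested receptor genes, ACVRL1, a type I receptor for BMP9 and BMP10, fell by 1.40 with NU6102 (adjusted p = 0.000121) and rose by 1.26 in R50 (adjusted p = 0.000373). ACVR2B, a type II receptor, fell by 1.08 with NU6102 (adjusted p = 0.00159). In R50 relative to treated WT cells ACVRL1 was 2.66 higher (adjusted p = 1.36e-05), ACVR2B 1.61 (adjusted p = 0.000257) and BMPR2 1.02 (adjusted p = 0.00418). None of the receptor genes changed 2-fold in CDK2-/- cells. Of 6 tested secreted antagonists, CHRD fell by 1.08 and FSTL3 rose by 1.17 with NU6102 (adjusted p = 0.000215 and 0.000187), and in R50 against treated cells they read 1.17 and −1.08. After normexp correction BMP8A read −0.57 with NU6102 and 1.06 in R50 against treated cells, both less than their bounds. BMP6 then read −0.30 and −0.63 in its comparisons, and BMPR2 0.38. ACVRL1 read −0.71 with NU6102, 0.85 in R50 against WT and 1.57 in R50 against treated cells. With NU6102, ACVR2B read −0.76 and CHRD −0.91 under this correction. By the methods' t-test BMP6 (0.166 and 0.114), ACVR2B with NU6102 (0.0933), ACVRL1 in R50 against WT (0.0584) and BMPR2 (0.133) did not pass after adjustment.

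The SMAD transducers changed by less than 2-fold against WT. With NU6102 and no fold minimum 4 of the 5 fell, where 54.7% of all genes were called in either direction. SMAD3 fell by 0.89 (limma adjusted p = 0.000888), SMAD2 by 0.66 (adjusted p = 0.00305), SMAD1 by 0.26 (adjusted p = 0.0272) and SMAD4 by 0.18 (adjusted p = 0.0425), while SMAD5 read 0.10 (adjusted p = 0.175). SMAD3, which carries TGF-beta and activin signals, was 1.04 higher in R50 than in CDK2-/- cells (adjusted p = 0.000796). Of 12 tested ubiquitin ligase and repressor genes, SMURF2 and NEDD4L, whose ligases act on SMAD proteins and receptors, fell by 1.39 and 1.78 with NU6102 (adjusted p = 0.000535 and 0.000121). After normexp correction SMURF2 read −0.92 with NU6102 and SMAD3 0.98 in R50 against CDK2-/-. In these comparisons neither passed the methods' t-test after adjustment (0.0603 for SMURF2 and 0.0567 for SMAD3). No gene of that list passed 2-fold in CDK2-/- or R50 cells against WT.

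On the TGF-beta side, TGFB1 rose by 1.61 with NU6102 (limma adjusted p = 8.38e-05), and INHBE, an activin subunit gene, fell by 1.09 in CDK2-/- cells (adjusted p = 0.00177). In R50 against CDK2-/- cells INHBE and TGFBR3 were 1.05 and 1.02 higher (adjusted p = 0.00172 and 0.00116). CTGF, a TGF-beta and YAP target, fell by 1.5 with NU6102 (adjusted p = 0.00256). In CDK2-/- cells it was not well above background and at least 5.12-fold below WT (adjusted p = 0.000855). Among 10 tested genes also known to respond to BMP, DLX2 and MSX1 rose by 1.54 and 1.06 with NU6102 (adjusted p = 0.000154 and 0.000261). With no fold minimum 6 of the 10 rose and 0 fell, where 54.7% of all genes were called in either direction. The share of all genes that rose by this rule was not counted. TBX3 rose by 2.19 in CDK2-/- cells (adjusted p = 0.000120) and by 1.88 in R50 cells (adjusted p = 0.000405). HEY1 was at least 1.89-fold lower in R50 than in WT (adjusted p = 0.0128; 0.0676 without WT replicate 2). After normexp correction HEY1 read only −0.26 (adjusted p = 0.0661), less than that bound, and TBX3 1.41 and 1.16. CTGF read −0.63 with NU6102 and −0.89 in CDK2-/- cells, the latter also less than its bound. INHBE read −0.34 and 0.36 and TGFBR3 0.62 with the same correction. By the methods' t-test CTGF with NU6102 (0.0692), INHBE in CDK2-/- cells (0.0893) and in R50 against them (0.0798), and TBX3 (0.0864) and HEY1 (0.202) in R50 against WT did not pass after adjustment. Of 6 tested genes for partners or targets of ID proteins, none changed 2-fold in any of the 5 comparisons.

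**Figure D4:**
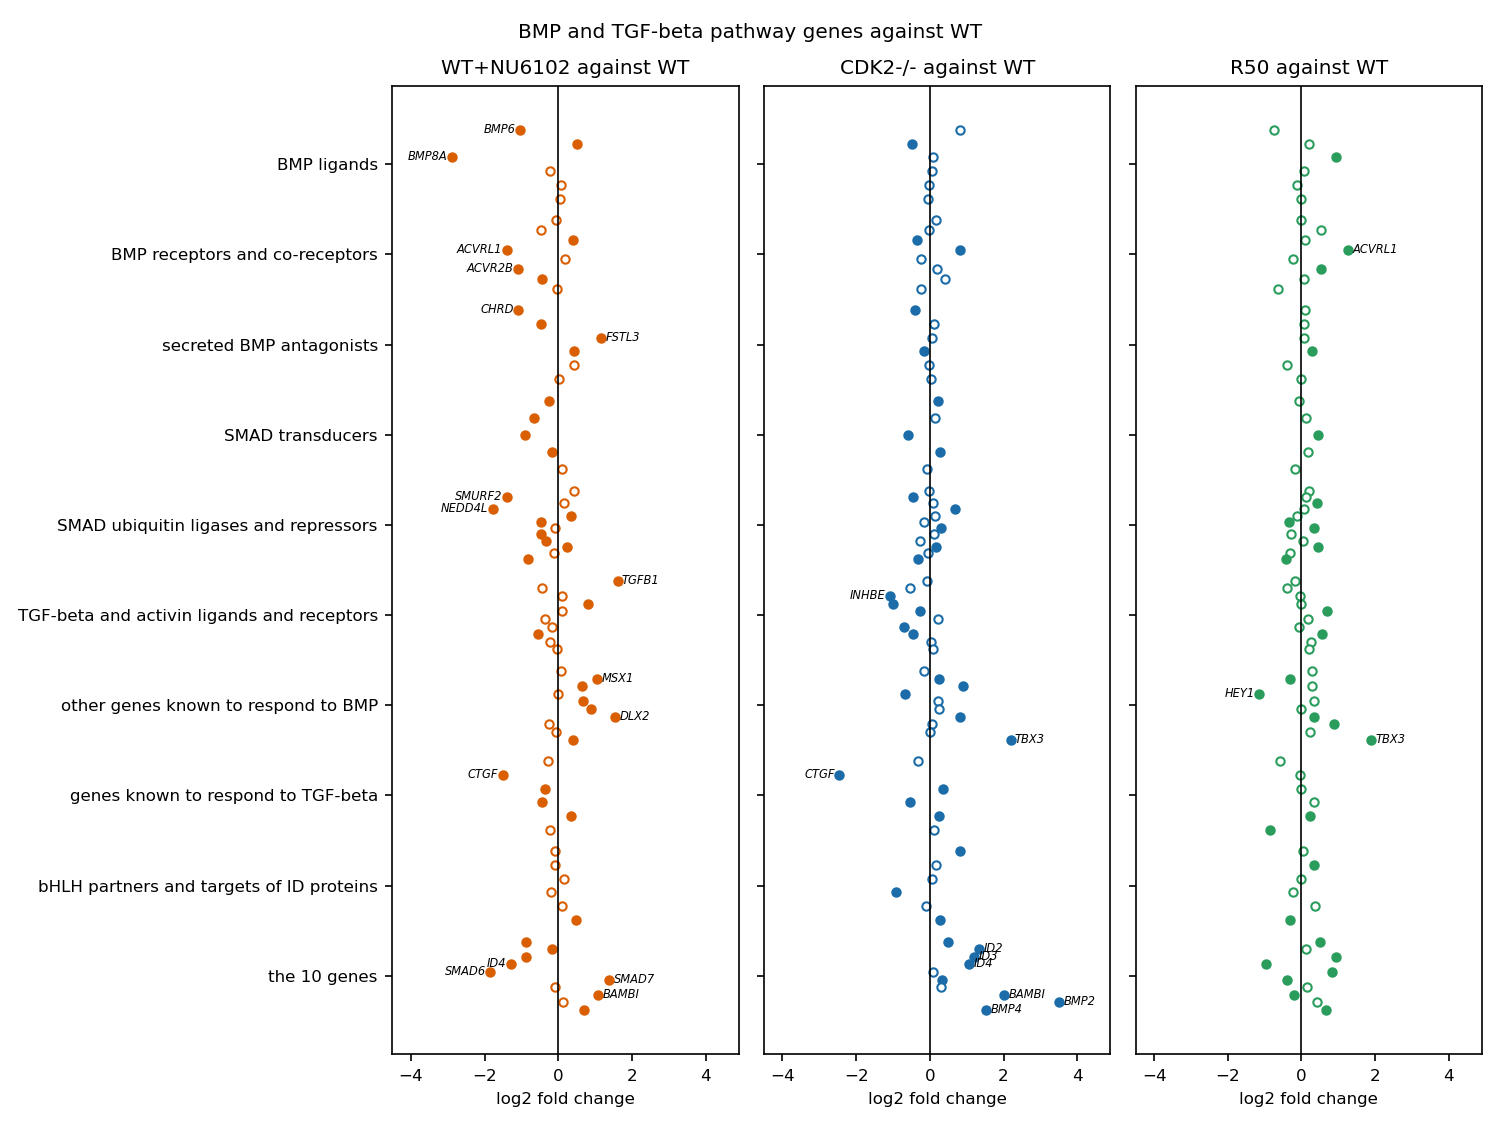
Log2 fold change against WT (horizontal axis) of the 69 tested genes of 9 pathway lists and of the 10 genes, 1 point per gene, in WT+NU6102, CDK2-/- and R50 cells. Filled points passed a limma adjusted p of 0.05, and names mark those that also changed by 1 or more in size. In CDK2-/- cells 6 named points stand to the right among the 10 genes, against 1 over all the lists. Members and lists were chosen with earlier results of these data known.

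The members' profiles were also set beside those of all 24489 probes well above background on every array, after centring each probe on its mean over the arrays and leaving out transcripts without a gene symbol. The measure of likeness was the root mean square difference over the 8 arrays. Nearest to ID1 were S100A2 (0.047 log2 units), RAB40B (0.056) and NEIL1 (0.064). Nearest to ID2 were UBE2L3 (0.057), AGPS (0.064) and CRAT (0.093), and nearest to ID3 were ADSSL1 (0.090), NEURL1B (0.095) and NPM2 (0.111). SMAD6 lay nearest to FOXP1 (0.117), KCNQ1 (0.125) and PINK1 (0.142), and SMAD7 to ODC1 (0.082), MYO19 (0.085) and EFNB2 (0.096). BMP4 had DPYSL3 (0.094), WWC2 (0.146) and LAMA3 (0.154) as its nearest genes. BAMBI, with ZNF816 (0.216), ZNF567 (0.250) and MID1 (0.262), and ID4, with CLMP (0.209) and C2orf89 (0.232), had more distant ones. BMP2 had the farthest, C17orf82 (0.290), AQP3 (0.347) and RHOU (0.349). No other member was among the nearest 3 of any member, though ID4 and BMP2, dim on some arrays, were not among the probes searched.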

How the data were processed

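Cy3-labelled RNA of 8 samples was hybridized to one-colour Agilent arrays with probes of 60 bases. Spots were quantified with Agilent Feature Extraction 11.5.1.1, and the authors deposited a background-subtracted intensity per spot, not normalized between arrays. Their GeneSpring GX table, also deposited, holds log2 values for 28719 probes and was used here as an alternative. From log2 of the intensity each array's 75th percentile was subtracted, leaving out outlier spots (R 4.3.3, with the data.table package at version 1.17.8). Of 50599 probes, 31 had no usable spot on an array, and 28677, well above background on the 2 arrays of 1 or more groups, were tested with limma 3.58.1 in 1 fit over 4 groups, two-sided, with Benjamini-Hochberg adjustment over all of them. The scripts were tested on simulated data. A gene was represented by its brightest tested probe. "At least" folds set a dim group at the lowest signal well above background on each array. They are bounds for the main background subtraction only, and differences after normexp correction could be smaller. The members and gene lists were chosen with earlier results of these data known. From the lists, at most the 3 largest 2-fold changes per list and comparison are named, and for each member whose group means span 1 log2 unit its nearest 3 genes; 1 such gene and 1 marker are not reported here. The alternatives were normexp (offset 50), quantile normalization, other dim-probe filters, the authors' log2 values, a trended prior variance, no fold minimum, a replicate block, the mean of a gene's probes, the methods' t-test and ANOVA, and leaving out each array. Probe positions are those of the WT files (hg19), and promoter sequences are from RefSeq (GRCh38.p14). Figures were drawn with matplotlib 3.10.9.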

Additional observations from a re-analysis of the deposited data

How the results depend on the processing

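Under normexp correction the calls among the 10 genes fell to 2 for WT+NU6102 against WT and 2 for R50 against CDK2-/-, and the probes called over the array to 631, 603, 319, 649 and 1489 for WT+NU6102, CDK2-/- and R50 against WT, R50 against CDK2-/- and R50 against WT+NU6102, from 1861, 1360, 742, 1492 and 3118. SMAD6 in CDK2-/- cells then read −0.01. With quantile normalization BMP4 in R50 against WT+NU6102 read 0.04. With only probes well above background on all arrays, 1135, 802, 384 and 847 probes were called in the first 4 comparisons, and 2 members in R50 against CDK2-/-. Without the fold minimum 12829, 8915, 6486, 9876 and 14750 probes were called, and 8, 7 and 8 members in WT+NU6102 against WT, R50 against WT and R50 against CDK2-/-. The methods' t-test with Benjamini-Hochberg adjustment called 972, 481, 9 and 633 probes in the first 4 comparisons, and 2 members in R50 against CDK2-/-. Leaving out each array gave 5 to 8 members past the F-test and 0 to 1 called in R50 against WT. The log2 fold change then ran from −0.21 to 0.06 for SMAD9 and −0.03 to 0.29 for BMP2 in WT+NU6102 against WT, −0.06 to 0.02 for BMP4 in R50 against WT+NU6102, and −0.01 to 0.03 for ID1 in R50 against CDK2-/-. Over the members' fold changes and all alternatives, 720 values kept direction and side of an adjusted p of 0.05, 61 lost that threshold, 2 gained it and 7 reversed. For the other pathway genes named, the same alternatives, added after seeing the data, left 577 of 596 values past this adjusted p, and 19 lost it. These counts leave the fold minimum aside, and several of the named changes were under it after normexp correction. The deviations of same-numbered arrays correlated by −0.028 to 0.045, so no deviation shared over the whole array was seen. These values cannot tell whether same-numbered samples were prepared together. With the replicate block 4 and 6 members were called in WT+NU6102 and CDK2-/- against WT, and BAMBI in R50 against WT lost its call (−0.20, adjusted p = 0.0675). Slide as a random block was not run, since each group lies on 1 slide. The causes of these changes were not tested. Signal over background limits ID4, BMP2 and the second SMAD9 probe.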
